A study of Mus musculus with 8 samples.

Results

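Undifferentiated hepatoblasts (iHBs, hepatoblasts cultured *in vitro*) with and without the Hippo kinases LATS1 and LATS2 were compared by RNA sequencing, using 2 of the 8 libraries of the series, 1 for each genotype. Genes entered the comparison where their mean over these 2 libraries reached 1 RPKM (reads mapped to a gene, scaled by its transcript length and by library depth), which left 13464 of 23467 genes. Each difference is that of log2(RPKM + 1), the L1L2_Alb library minus the control library, so that 1 stands for a near doubling of a well-expressed gene and for a larger ratio in low genes. No replicate of either genotype was sequenced at this stage, so differences are given as sizes without a test, and genes are named where they reach 1 in either direction.

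The study asked how loss of *Lats1* and *Lats2* alters gene expression while hepatoblasts turn into hepatocytes or biliary epithelial cells (BECs). The cells came from E14.5 livers of mice on a B6;129 mixed background. Control embryos were labelled wild type, and L1L2_Alb embryos carried the genotype Lats1-/-;Lats2f/fl;Alb-cre. The other 6 libraries are hepatocytes (iHPs, oncostatin M) and BECs (iBECs, Matrigel) differentiated from such cultures, with 1 control and 2 L1L2_Alb libraries each. In L1L2_Alb embryos *Lats1* is disrupted in all cells of the body, whereas *Lats2* is removed only where the albumin promoter has driven Cre, so a blood or stromal cell in the same dish lacks *Lats1* alone. By the label of the controls, their embryos carried neither allele and no Cre, and both genotypes were grown on a collagen coat in medium with serum, EGF, HGF, insulin and dexamethasone. How many embryos went into a dish is not given in the sources used here.

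Hepatoblasts are the bipotent progenitors of the fetal liver, which give rise to hepatocytes and, next to the portal vein, to the epithelium of the bile ducts. In the Hippo pathway, LATS1 and LATS2 phosphorylate the coactivators YAP and TAZ and so keep them out of the nucleus. Without that restraint YAP and TAZ join TEAD factors on DNA and switch on genes such as *Ctgf* and *Cyr61*, and several of their targets, among them *Lats2* and *Amotl2*, feed back on the pathway.

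The library of control iHB held 28460345 mapped reads and that of L1L2_Alb iHB 28694163, within a range of 18436865 to 33229075 over the series. *Lats1* RNA was measured at 10.6 RPKM in the control library and at 13.9 RPKM in that labelled L1L2_Alb (difference 0.35), and *Lats2* RNA at 9.23 and 19.7 RPKM (1.01). Neither kinase was thus lower in the library labelled L1L2_Alb. The table gives 1 value for a whole gene and the deleted exons are not named in the sources used here, so RNA made from the remaining exons counts too, and these values do not check the deletion. Every direction given here rests on the label. Fetal liver RNA was abundant in both libraries by *Afp*, at 3687 and 3959 RPKM, and RNA of simple epithelium by *Krt8* and *Krt18*. These 3 were the only ones of the 9 hepatoblast markers with a difference above 0. The other 6 lay below 0, among them *Alb* at 2485 and 524 RPKM, and the median of the 9 was -0.72. *Dlk1* was low at 3.25 and 1.58 RPKM. RNA of other cell types was present as well. The 7 macrophage markers summed to 2422 RPKM in control and 2236 RPKM in the library labelled L1L2_Alb, and the 6 granulocyte markers to 12606 and 3909 RPKM. The 10 mesenchymal markers summed to 4666 and 1636 RPKM, the 5 erythroid markers to 109 and 22.5 RPKM and the 6 endothelial markers to only 7.99 and 6.18 RPKM. The 4 Y-linked genes *Ddx3y*, *Eif2s3y*, *Kdm5d* and *Uty* summed to 55.0 RPKM in control iHB and were all listed at 0 in the library labelled L1L2_Alb. *Xist*, the X inactivation transcript of female cells, was present in both, at 30.9 and 21.5 RPKM. RNA of male cells was thus detectable only in the control library. The part of embryo sex and of the other cell types in the differences given here was not tested, and in such bulk samples fewer cells of a type and less RNA per cell cannot be told apart.

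**Figure D1:**
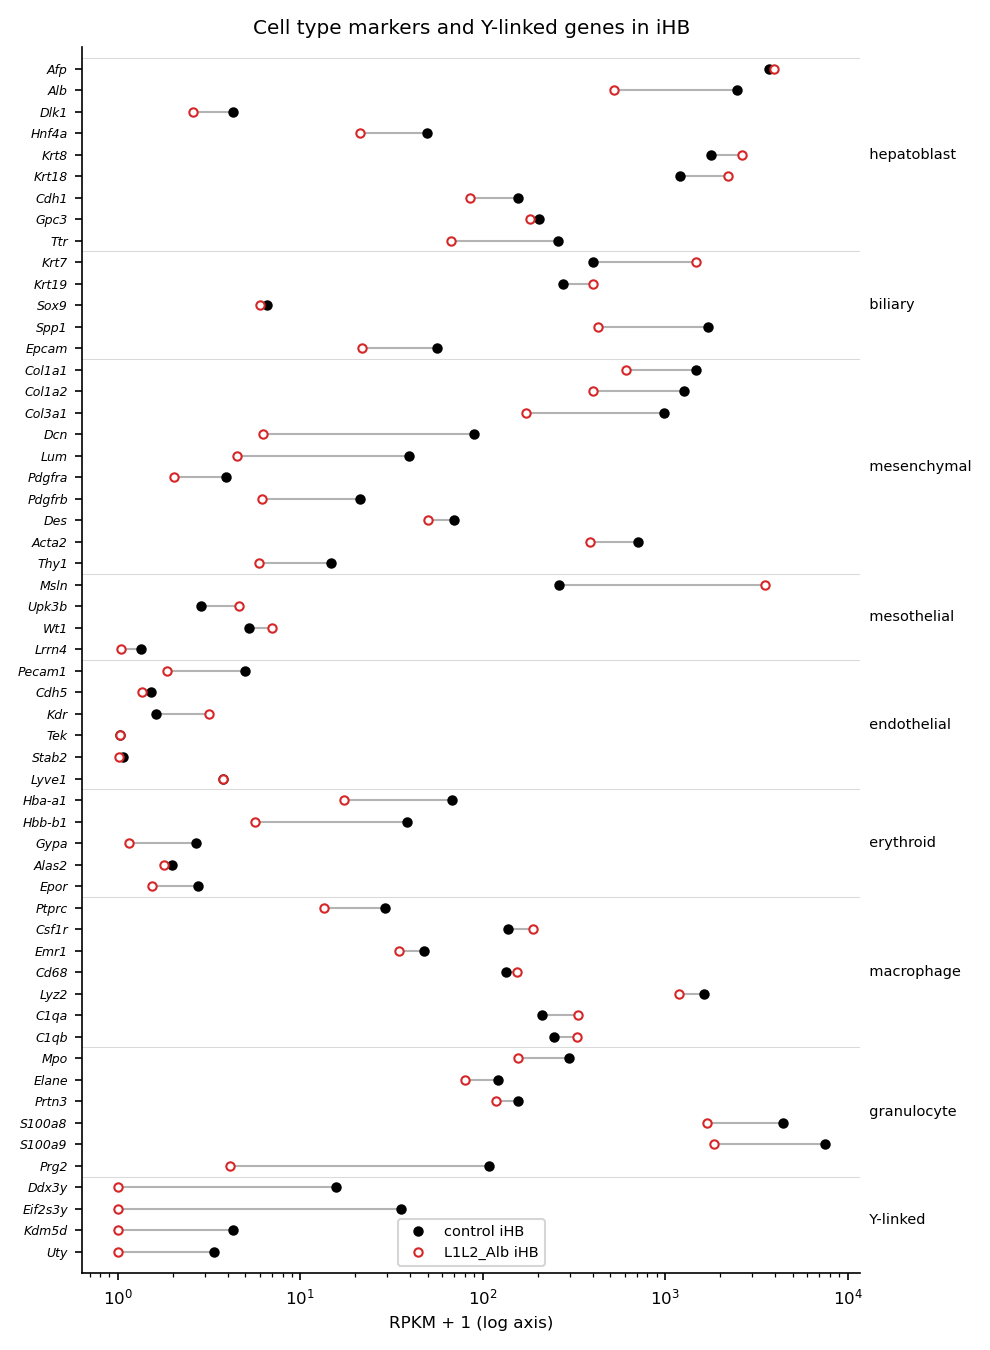
RPKM + 1 (log axis) of cell type markers and Y-linked genes in control iHB (filled black) and L1L2_Alb iHB (open red), 1 library each, with a grey line joining the 2 values of a gene. Mesenchymal and granulocyte markers lie to the left in L1L2_Alb iHB, macrophage markers lie close together, and the 4 Y-linked genes sit at 0 RPKM in L1L2_Alb iHB.

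Of the 13464 genes, 768 (5.70%) were higher by at least 1 in the library labelled L1L2_Alb and 1245 (9.25%) were lower by at least 1. Counts over gene lists and families given below are to be read beside these shares. The excess of lower genes held at larger sizes, with 168 higher against 237 lower at a difference of 2 and 9 against 23 at a difference of 4. The median over all genes was -0.09, and the 5th and 95th percentiles were -1.33 and 1.08. The threshold cuts a continuous distribution, since the nearest genes on either side of it stood at 1.0001 and 0.9992 above and at -1.0003 and -0.99997 below. Whole read numbers could be recovered for 1573 of the 2013 genes past the threshold, with a median of 965 reads in the higher library, and for 24 of them the 95% counting interval of the ratio (exact binomial, covering counting error only) held 1. Counting noise was therefore small for most of these genes, whereas the spread between cultures is unknown.

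**Figure D2:**
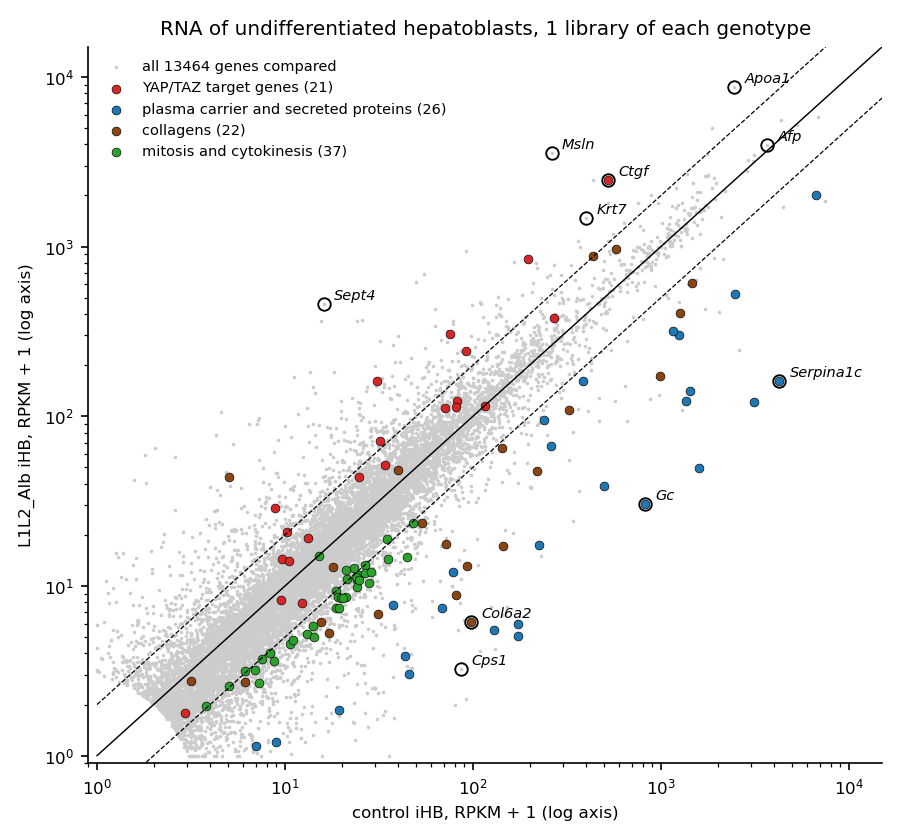
Each point is a gene, by its RPKM + 1 in control iHB (horizontal) and in L1L2_Alb iHB (vertical), both log axes, 1 library each. The solid line marks equal values and the dashed lines a factor of 2 either way. Plasma proteins (blue), most collagens (brown) and genes of mitosis (green) lie below the line and YAP/TAZ targets (red) mostly on or above it.

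The 15 largest increases were in genes of varied function. *S100a7a*, a calcium-binding protein of inflamed skin, was at 0.806 RPKM in control and 57.8 RPKM in the library labelled L1L2_Alb, a difference of 5.03 (ratio 71.8, counting interval 44.6 to 124). *Tff1*, a trefoil peptide secreted by the stomach lining, went from 1.03 to 63.9 RPKM (difference 5.00). Both genes were close to silent in control iHBs. *Sept4*, a filament-forming septin GTPase, was already present at 15.1 RPKM in control and reached 458 RPKM (4.83, from 702 to 21483 reads), and *Procr*, the endothelial protein C receptor, stood at 14.48 and 364 RPKM (4.56). The most abundant of the 15 was *Msln*, which encodes the surface glycoprotein mesothelin, at 261 RPKM in control and 3536 RPKM in the other library (3.75).

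Enzymes that make or release signals were among them. *Porcn*, the acyltransferase that lipidates Wnt proteins before secretion, stood at 23.2 and 361 RPKM (3.90), and *Ptgs2*, the inducible cyclooxygenase of prostaglandin synthesis, at 24.7 and 367 RPKM (3.84). The zinc importer *Slc39a8* stood at 10.1 and 169.9 RPKM (3.94). *Limch1* (4.74), *Fabp3*, a fatty acid-binding protein (4.47), *Clic5*, a chloride intracellular channel (4.47), the lectin gene *Siglecg* (4.16) and the chemokine gene *Ccl17* (3.75) were the other named genes, with 4930486L24Rik (4.53) and 4933401H06Rik (3.81). Of the 15, 5 were under 2 RPKM in control, namely *S100a7a*, *Tff1*, *Limch1*, *Fabp3* and *Clic5*.

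The 15 largest decreases were mostly in genes of hepatocyte function. *Vtn*, the plasma adhesion protein vitronectin, stood at 173 RPKM in control and 4.05 RPKM in the library labelled L1L2_Alb, a difference of -5.10 (42.6-fold lower). *Gc*, the vitamin D-binding protein of plasma, was at 823 and 29.4 RPKM (-4.76). *Cps1*, which makes the first committed step of the urea cycle, was at 85.0 and 2.24 RPKM (-4.73), and *Mat1a*, which makes S-adenosylmethionine in the adult liver, at 36.8 and 0.670 RPKM (-4.50). The α1-antitrypsin paralogues, *Serpina1a*, *Serpina1c* and *Serpina1d*, lay between -5.01 and -4.68, and since they are near-identical copies the split of reads among them is uncertain.

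Other genes among the 15 belong to other functions or cell types. *Eln*, the elastin of elastic fibres, had the largest decrease of all, from 90.3 to 1.16 RPKM (-5.40, 9715 against 126 reads). *Fxyd3*, a regulator of the sodium pump, was at 79.1 and 0.998 RPKM (-5.32), and *Prg2*, the major basic protein of eosinophil granules, at 108 and 3.12 RPKM (-4.72). *Eif2s3y*, one of the Y-linked genes, was listed at 0 against 34.6 RPKM in control. A floor of 3 reads in the library at 0 makes it at least 586-fold lower. *Itih3* (-4.87), *Pzp* (-4.55) and *Apoh* (-4.42), all secreted into plasma, were also among the 15.

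**Figure D3:**
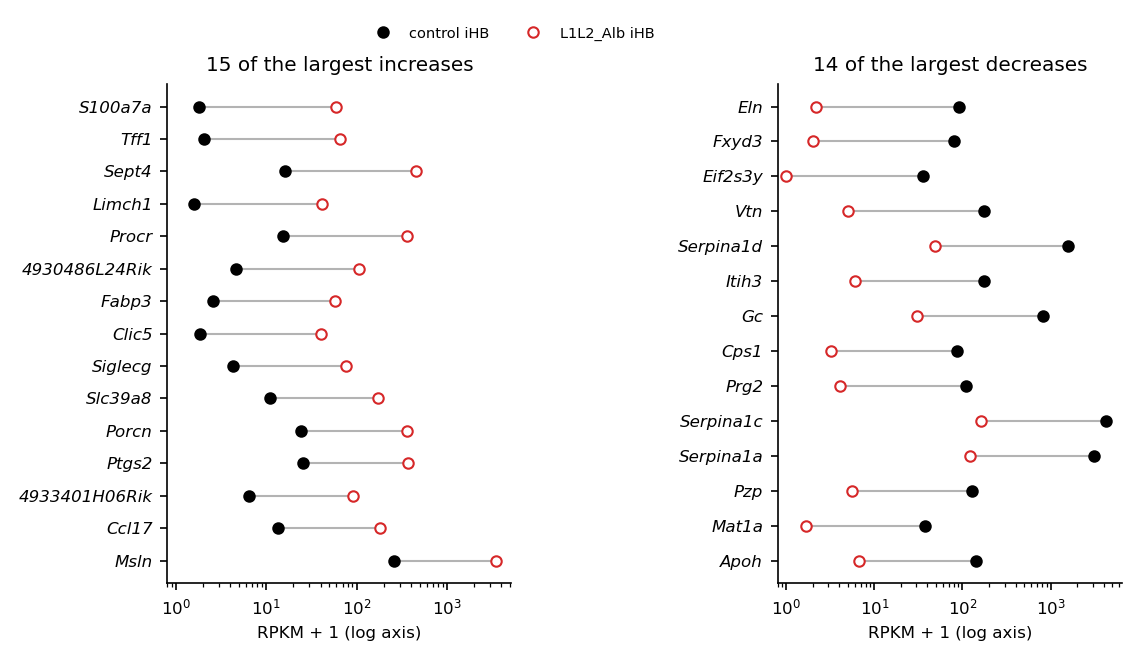
RPKM + 1 (log axis) of the 15 genes with the largest increase (left) and 14 of those with the largest decrease (right) in iHB, in the control library (filled black) and the L1L2_Alb library (open red). *Msln* and the Serpina1 genes are abundant in at least 1 library, whereas *S100a7a*, *Tff1*, *Limch1* and *Clic5* start near 1 RPKM and *Eif2s3y* ends at 0.

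Among the readouts of YAP and TAZ, 8 of the 21 target genes compared were higher by at least 1 and none was lower by that much, beside 5.70% and 9.25% of all genes, and the median of the list was 0.60. *Ctgf*, a secreted matricellular protein, stood at 523 RPKM in control and 2469 RPKM in the library labelled L1L2_Alb (difference 2.24). Its relative *Cyr61* stood at 194 and 848 RPKM (2.12), and *Crim1*, a transmembrane protein that binds bone morphogenetic proteins, had the largest difference of the list at 29.9 and 161 RPKM (2.39). *Amotl2* (2.01), *Tgfb2* (1.71), *Axl* (1.40), *Nt5e* (1.16) and *Lats2* itself (1.01) were the others past 1. Not all classical targets stood out. *Ankrd1* differed by 0.48, from 269.5 to 376 RPKM, and *Igfbp3* by -0.02.

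TEAD factors recognise GGAATG, and the windows from 250 bases before to 50 bases after the transcription start are printed for 3 of the targets past 1, chosen among those with a match because these genes were higher together and TEAD factors are the DNA-binding partners of YAP and TAZ. Each is written along the strand of its gene, with the match or its reverse complement CATTCC in capitals (RefSeq, GRCm38.p6).
Crim1: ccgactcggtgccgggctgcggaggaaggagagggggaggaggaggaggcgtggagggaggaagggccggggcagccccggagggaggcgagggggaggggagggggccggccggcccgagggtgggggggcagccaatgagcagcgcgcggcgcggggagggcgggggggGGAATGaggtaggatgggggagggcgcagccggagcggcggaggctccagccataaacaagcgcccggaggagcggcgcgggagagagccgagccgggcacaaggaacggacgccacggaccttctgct
Cyr61: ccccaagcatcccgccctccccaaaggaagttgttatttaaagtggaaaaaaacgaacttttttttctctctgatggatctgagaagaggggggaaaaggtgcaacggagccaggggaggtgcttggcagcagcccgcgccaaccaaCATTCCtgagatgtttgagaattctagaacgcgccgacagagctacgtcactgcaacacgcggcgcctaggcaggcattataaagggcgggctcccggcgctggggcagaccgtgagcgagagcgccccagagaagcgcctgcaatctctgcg
Amotl2: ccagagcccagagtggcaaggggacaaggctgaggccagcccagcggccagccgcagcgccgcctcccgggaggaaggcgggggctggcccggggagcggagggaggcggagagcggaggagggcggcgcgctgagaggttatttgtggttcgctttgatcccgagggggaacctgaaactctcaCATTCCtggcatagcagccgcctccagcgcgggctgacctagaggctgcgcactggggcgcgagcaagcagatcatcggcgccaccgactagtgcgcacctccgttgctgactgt
The *Crim1* window (chr17:78199998-78200297, plus strand) has the first base of its match at -79 from the start, the *Cyr61* window (listed by RefSeq as Ccn1, chr3:145649936-145650235, minus strand) at -103 and the *Amotl2* window (chr9:102717554-102717853, plus strand) at -65. The same letters on either strand occur in 14.7% of all 32851 windows, so such a match is common. A window was found for only 14 of the 21 targets compared, which is too few for a share over the list, and 7 of the 14 hold no match.

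Among the Hippo components themselves feedback genes stood out. Of 18 kinases and adaptors, 4 were higher by at least 1, beside 5.70% of all genes, and none was lower by that much. *Amotl1*, an angiomotin that binds YAP, stood at 24.99 and 69.6 RPKM (1.44), followed by *Ajuba* (1.17), *Wwc1* (1.03) and *Lats2*. The upstream kinase *Stk3* differed by 0.06 and *Nf2*, which recruits LATS to the membrane, by -0.29. RNA of *Yap1* was at 28.3 and 29.5 RPKM (0.06) and RNA of *Wwtr1*, which encodes TAZ, at 20.3 and 35.2 RPKM (0.77). The TEAD genes went different ways. *Tead4* was at 9.44 and 23.6 RPKM (1.24) and *Tead1* differed by 0.68, whereas *Tead3* differed by -0.70 and *Tead2* was at 23.1 and 2.52 RPKM (-2.78). In control iHBs *Tead2* was the most abundant of the 4 per length, and in the library labelled L1L2_Alb it was the least.

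TGFβ signalling genes differed among ligands and receptors without a common direction in its response genes. *Tgfb2* was at 7.83 and 27.9 RPKM (1.71), whereas the ligand *Tgfb1* differed by -0.13 and *Tgfb3* by -1.14. *Tgfbr3*, the co-receptor that presents TGFβ2, went from 1.61 to 26.9 RPKM (3.42), and the inhibitory *Smad7* from 6.78 to 27.8 RPKM (1.89). *Ltbp4*, a matrix protein that stores latent TGFβ, was at 25.3 and 2.06 RPKM (-3.10). In all, 4 of 24 ligands, receptors and SMADs were higher and 3 lower by at least 1, beside 5.70% and 9.25% of all genes. Of 17 response genes, 5 were higher and 5 lower by at least 1, with a median of -0.01. The largest difference of the response list was that of *Ctgf* (2.24), which is also counted among the YAP/TAZ targets. Another higher one was *Itgb6*, an integrin chain that activates latent TGFβ (1.39). The lower ones included *Snai1* (-1.44), *Fn1* (-1.35), *Col1a1* (-1.27) and *Tagln* (-1.09).

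The genes of epithelial to mesenchymal transition gave no uniform picture either. *Vim*, the intermediate filament of mesenchymal cells, was at 886 and 1999 RPKM (1.17) and N-cadherin (*Cdh2*) at 65.8 and 142 RPKM (1.10). E-cadherin (*Cdh1*) was at 156 and 84.1 RPKM (-0.88). The other members past 1 were all lower and came from both sides, among them the mesenchymal *Cdh11* (-1.83), *S100a4* (-1.56) and *Snai2* (-1.03) and the epithelial *Esrp1* (-1.97), *Cdh3* (-1.61) and *Grhl2* (-1.45). Of 15 genes, 2 were higher and 8 lower by at least 1, beside 5.70% and 9.25% of all genes.

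The transcription factors that specify hepatocytes were mostly lower, with a median of -0.95. Of 21 compared, 10 were lower and 2 higher by at least 1, beside 9.25% and 5.70% of all genes. *Hnf4a*, the nuclear receptor at the centre of hepatocyte specification, stood at 48.4 RPKM in control and 20.2 RPKM in the library labelled L1L2_Alb (-1.22). *Onecut1*, which encodes HNF6, had the largest decrease at 10.4 and 1.11 RPKM (-2.43), then *Prox1* at 9.94 and 1.69 RPKM (-2.02), needed for hepatoblasts to spread into the liver bud stroma. These 3 genes were present in control at 9.94 to 48.4 RPKM, and none was a trace transcript. *Nr5a2* (-1.98), *Onecut2* (-1.66), *Nr1i2* (-1.58), *Foxa3* (-1.50), *Creb3l3* (-1.39) and *Hhex* (-1.33) were among the others. *Cebpa* differed by 0.08, at 23.6 and 25.1 RPKM. The exceptions were *Foxa2*, a pioneer factor of foregut endoderm, at 9.96 and 35.6 RPKM (1.74), and *Gata6*, an endodermal zinc finger factor, at 17.3 and 68.6 RPKM (1.92). Their close relatives *Foxa1* (0.09) and *Gata4* (-0.00) did not share the increase.

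Genes of the fetal hepatoblast split. *Afp* differed by 0.10 and the glypican *Gpc3* by -0.16, whereas the linked imprinted genes *H19* and *Igf2* stood at 1290.2 against 108 RPKM (-3.56) and 199.6 against 37.4 RPKM (-2.38). *Ahsg* (-3.47), *Cd24a* (-1.73) and *Peg3* (-1.09) were also lower, and none of the 14 genes was higher by 1. Thus the main secreted marker of fetal liver kept its level in the library in which albumin, from 2485 to 524 RPKM (-2.24), did not.

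Plasma proteins were lower without exception. All 26 compared were lower by at least 1, with a median of -3.37, beside 9.25% of all genes. Transferrin (*Trf*), the most abundant of them in control, was at 6686 and 2006 RPKM (-1.74), and transthyretin (*Ttr*) at 259 and 65.9 RPKM (-1.96). The inter-α-trypsin inhibitor chain *Itih4* was at 44.8 and 2.04 RPKM (-3.91) and ceruloplasmin (*Cp*) at 223 and 16.5 RPKM (-3.67). The smallest decrease was that of retinol-binding protein (*Rbp4*, -1.26) and the largest that of *Vtn*, so the size varied widely within the list while the direction did not.

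The apolipoproteins differed in direction. *Apoa1*, the main protein of high-density lipoprotein, stood at 2451 RPKM in control and 8669.7 RPKM in the library labelled L1L2_Alb (1.82), whereas *Apoa2*, its partner in the same particle, stood at 124 and 6.56 RPKM (-4.05). Other abundant members lay near the median of all genes, *Apoe* at -0.25 and *Apob* at -0.25. *Apof* (-4.23), *Apoc3* (-3.32) and *Apoc1* (-2.07) were lower with *Apoa2*. In all, 8 of 16 were lower and 1 higher by at least 1, beside 9.25% and 5.70% of all genes.

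In coagulation and fibrinolysis 14 of 25 genes were lower and 3 higher by at least 1, beside 9.25% and 5.70% of all genes. The 3 fibrinogen chains were lower together, *Fga* by -2.80, *Fgb* by -2.31 and *Fgg* by -2.87, from 655, 2030.0 and 970.3 RPKM in control. Factor XII (*F12*, -3.91), plasminogen (*Plg*, -3.70) and antithrombin (*Serpinc1*, -3.51) had the largest decreases. The higher ones included thrombomodulin (*Thbd*, 1.55) and the urokinase receptor (*Plaur*, 1.28), which act at cell surfaces and are not confined to liver. Complement followed, with 9 of 16 genes lower and 2 higher, against the same shares of all genes. *C3* was at 874 and 125 RPKM (-2.80), and *C1s* differed by -3.85 and the C1 inhibitor *Serping1* by -3.33. *Masp1* (1.77) and the complement shield *Cd55* (1.41) were the higher ones.

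Acute-phase genes were divided. *Crp* (-3.90) and *Apcs* (-4.23), the pentraxins of liver, were among the largest decreases. Of 20 genes 10 were lower by at least 1, beside 9.25% of all genes. *Hamp*, which encodes the iron hormone hepcidin, stood at 112 and 382 RPKM (1.76), *Hamp2* differed by 1.26 and *Saa1* by 1.31, although reads of the 2 hepcidin genes and of *Saa1* and *Saa2* are hard to separate. *Saa3* was abundant in both libraries at 1766 and 3516 RPKM (0.99). The transferrin receptors *Tfrc* (-1.86) and *Tfr2* (-1.77), through which cells take up or sense iron, were lower.

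Metabolic genes of the hepatocyte were mostly lower. In the urea cycle and amino acid catabolism 18 of 27 genes were lower and 1 higher by at least 1. These counts stand beside 9.25% and 5.70% of all genes, and the median was -1.57. Next to *Cps1* and *Mat1a*, cystathionine β-synthase (*Cbs*) was at 18.4 and 0.704 RPKM (-3.51) and *Hpd*, a dioxygenase of tyrosine breakdown, at 11.8 and 0.205 RPKM (-3.40). The exception was *Arg1*, the last enzyme of the urea cycle, at 135 and 501 RPKM (1.88). Of 28 xenobiotic genes 17 were lower and 2 higher, against the same shares of all genes. *Sult1a1*, a phenol sulphotransferase, was at 230.1 and 14.0 RPKM (-3.94), and glutathione transferase *Gsta3* differed by -2.78, while *Ugt2b34* (1.78) and *Cyp2s1* (1.35) were higher.

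Genes of glucose output by the liver were lower, and most glycolytic genes were not. The hepatocyte glucose transporter *Slc2a2* was at 22.5 and 0.244 RPKM (-4.24), glucose-6-phosphatase (*G6pc*) at 8.76 and 0.357 RPKM (-2.85) and fructose bisphosphatase (*Fbp1*) at 10.7 and 1.32 RPKM (-2.34). In gluconeogenesis and glycogen storage 7 of 12 genes were lower and none higher by at least 1, beside 9.25% and 5.70% of all genes. Of 22 glycolytic genes 19 lay within 1, a share close to the 85.0% of all genes. The erythrocyte-type transporter *Slc2a1* was at 215 and 802 RPKM (1.89), and the lower ones included the liver pyruvate kinase *Pklr* (-2.04), whose counterpart *Pkm* (0.33) lay slightly above 0.

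Lipid pathways went opposite ways. Of 21 genes of fatty acid oxidation and ketogenesis 6 were lower and 1 higher by at least 1, beside 9.25% and 5.70% of all genes. The lower ones were led by the liver fatty acid-binding protein *Fabp1* (-3.74) and the fatty acid transport protein *Slc27a2* (-2.70). The higher one was *Pdk4* (2.31), which restrains pyruvate oxidation. In cholesterol synthesis 21 of 23 genes lay above 0, beside 5790 of all 13464 genes. Their median was 0.60 beside -0.09 for all genes, and 5 were higher by at least 1, beside 5.70%. The sterol isomerase *Ebp* differed by 1.42, *Sc4mol*, a sterol methyl oxidase, by 1.36 and *Hsd17b7* by 1.12. Of 11 bile acid genes 4 were lower and 1 higher by at least 1, beside 9.25% and 5.70% of all genes. The lower ones were *Abcb4* (-2.11), *Slc10a1* (-1.97), *Baat* (-1.59) and *Abcc2* (-1.12), and the higher one was *Abcb1a* (1.07). *Cyp7a1*, the rate-limiting enzyme of bile acid synthesis, was not compared, at 0.32 RPKM in control (38 reads) and 0 in the other library.

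Genes of the biliary epithelium did not move as a group toward higher levels. Of 22 compared, 13 were lower and 3 higher by at least 1, beside 9.25% and 5.70% of all genes. *Krt7*, a keratin of bile ducts, was at 399.6 and 1470.2 RPKM (1.88) and *Krt19* at 273 and 400.2 RPKM (0.55), and *Sox9*, an early factor of the ductal plate, at 5.53 and 5.03 RPKM (-0.12). Against this, osteopontin (*Spp1*) was at 1706 and 428 RPKM (-1.99) and *Epcam* at 55.0 and 20.8 RPKM (-1.36). *Anxa13* (-3.13), *Cldn7* (-2.29), *Pkhd1*, the gene of the ciliary protein fibrocystin (-1.87), *Ggt1* (-1.84) and *Sox4* (-1.72) were lower as well. Beside *Krt7*, the higher members were *Tff1* and the lowly expressed *Krt23* (1.08).

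Among 9 keratins 8 lay above 0, beside 5790 of all 13464 genes. *Krt7*, *Krt23* and *Krt80* (1.59) were the 3 higher by at least 1, beside 5.70% of all genes. The simple keratins of hepatoblasts were abundant, *Krt8* at 1774 and 2625 RPKM (0.57) and *Krt18* at 1202 and 2218 RPKM (0.88). Tight junction genes were sorted by type. The claudins *Cldn3* (-3.07), *Cldn6* (-2.99) and *Cldn7* and the tricellular partner *Marveld3* (-1.97) were lower with occludin (*Ocln*, -1.23), whereas the adhesion molecule *F11r* (1.12) was among 2 higher ones. In the Notch pathway, which directs the ductal plate, 10 of 11 genes lay below 0, beside 7674 of all 13464 genes. Only 2 were lower by at least 1, beside 9.25% of all genes, the mural-cell genes *Notch3* (-1.31) and *Heyl* (-2.06). *Jag1* differed by -0.65, *Notch2* by -0.13 and *Hes1* by -0.76, and *Hey1* had too little RNA to be compared.

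**Figure D4:**
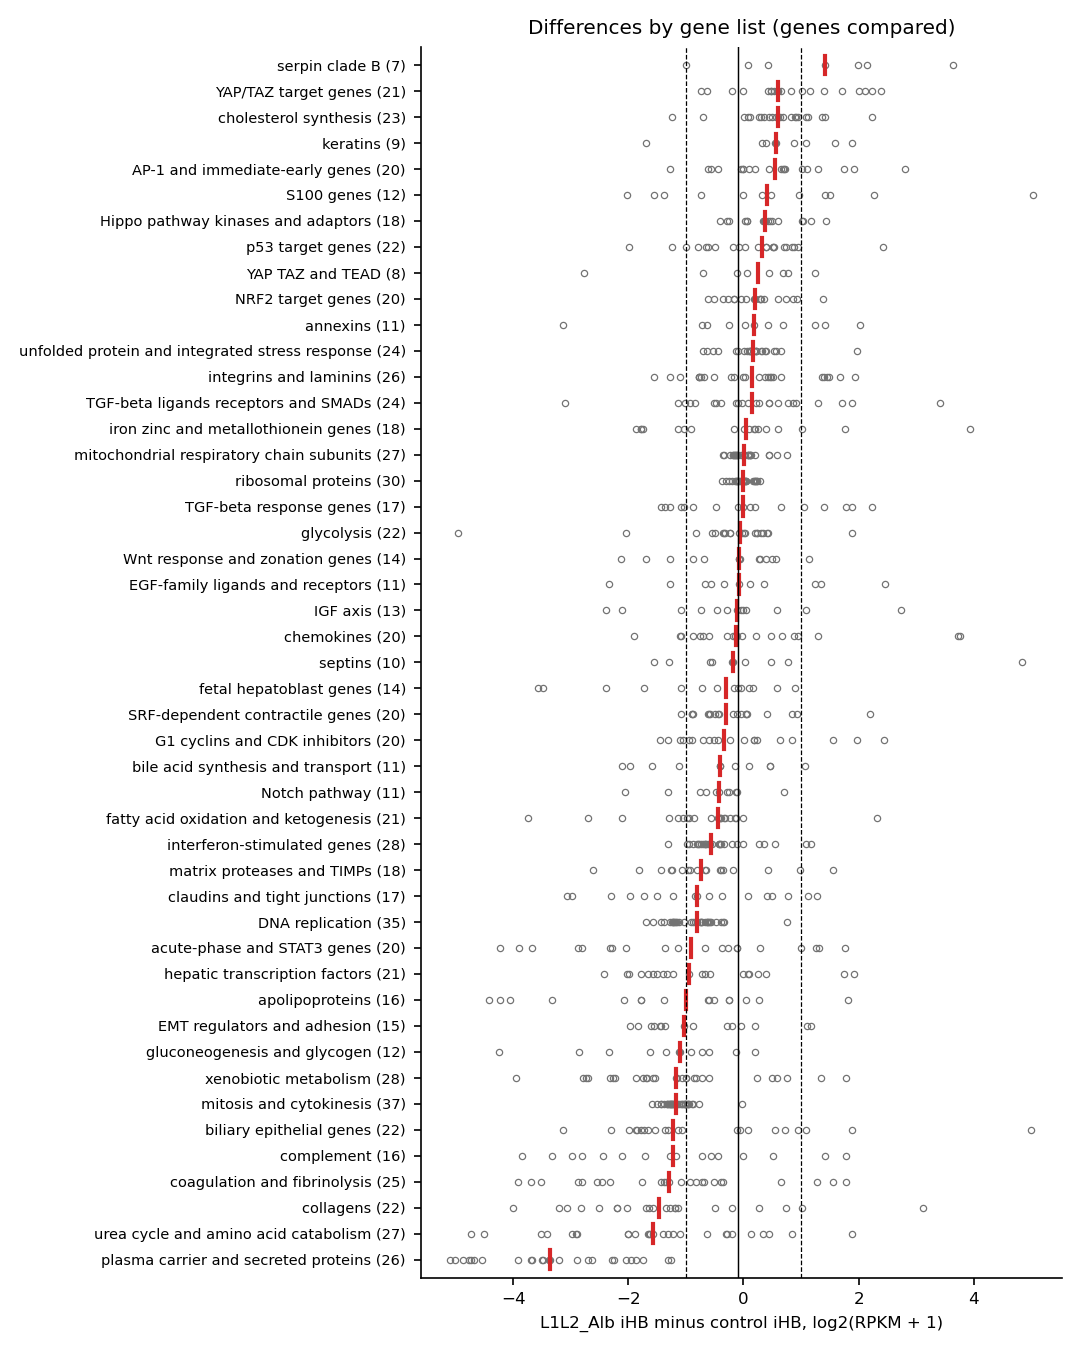
Difference of log2(RPKM + 1), L1L2_Alb iHB minus control iHB, for each gene (open circles) of 47 gene lists ordered by median (red bar), with the number of genes compared in brackets. The solid line marks the median of all genes (-0.09) and the dashed lines a difference of 1 either way. Plasma proteins lie wholly below -1, ribosomal proteins and respiratory chain subunits close to 0, and the clade B serpins have the highest median.

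Genes of the extracellular matrix were another large class of lower genes. Of 22 collagens 16 were lower and 2 higher by at least 1, beside 9.25% and 5.70% of all genes, with a median of -1.46. The 3 chains of collagen VI were the lowest, *Col6a2* at 97.0 and 5.09 RPKM (-4.01), *Col6a3* by -3.20 and *Col6a1* by -3.06, and *Col3a1* was at 991 and 173 RPKM (-2.51). Among the collagens of basement membranes and their borders the directions differed. *Col4a1* (0.73) and *Col4a2* (1.02) lay above 0, and *Col7a1*, the anchoring fibril beneath stratified epithelia, was at 4.05 and 42.6 RPKM (3.11), whereas *Col15a1* was lower (-2.82). A list of elastic fibre and small proteoglycan genes was written after their values were seen. Of its 20 genes compared, 15 were lower and none higher by at least 1, beside 9.25% and 5.70% of all genes. The lower ones included *Mfap4* (-3.87), decorin (*Dcn*, 88.9 and 5.28 RPKM, -3.84), lumican (*Lum*, -3.13) and fibrillin (*Fbn1*, -2.14).

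Markers of mesenchymal cells that are not matrix genes lay below 0 too. *Pdgfrb*, the receptor of pericytes and stellate cells, was at 20.4 and 5.21 RPKM (-1.78) and *Thy1* differed by -1.30, while *Pdgfra* (-0.94), *Acta2* (-0.89) and desmin (*Des*, -0.47) lay within 1. The other 5 of the 10 mesenchymal markers are themselves matrix genes, *Col1a1*, *Col1a2*, *Col3a1*, *Dcn* and *Lum*, all lower by at least 1. The part of these cells in the matrix difference was not tested. Of 20 contractile genes that depend on SRF 18 lay within 1, beside 85.0% of all genes, with *Tagln* lower and *Fhl2* at 32.8 and 153 RPKM (2.19).

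Epithelial adhesion to the basement membrane included several higher genes. The laminin chain *Lama3* was at 0.632 and 5.25 RPKM (1.94), *Lamb2* differed by 1.49 and the laminin receptor *Itga3* by 1.45, at 141 and 387 RPKM. Of 26 integrins and laminins 6 were higher and 3 lower by at least 1, beside 5.70% and 9.25% of all genes, the lower ones being *Lama4* (-1.55), *Itga4* (-1.28) and *Itgb4* (-1.11). Of 18 matrix proteases and their inhibitors 6 were lower and 1 higher by at least 1, against the same shares of all genes. The lower ones were led by the proteases *Adamts1* (-2.62) and *Adamts2* (-1.82). The inhibitors went both ways, *Timp3* lower (-1.43) and *Timp2* higher (1.56).

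The clade B serpins, intracellular protease inhibitors, had the highest median of the 47 lists at 1.41. Of 7 compared, 4 were higher by at least 1, beside 5.70% of all genes. *Serpinb9b*, an inhibitor of granzymes, was at 48.5 and 618 RPKM (3.64), *Serpinb6b* at 77.5 and 347 RPKM (2.15) and *Serpinb8* at 6.94 and 30.6 RPKM (1.99), and *Serpinb9* differed by 1.41. Reads of *Serpinb9* and *Serpinb9b*, which are close paralogues, may be shared. The secreted serpins of clade A went the other way. All 13 genes whose symbol begins with Serpina were lower by at least 1, beside 9.25% of all genes, with a median of -3.51.

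The S100 and annexin families held large differences in both directions. Beside *S100a7a*, *S100a6* was at 1879 and 4994 RPKM (1.41), *S100a3* differed by 2.27 and *S100a13* by 1.51. The neutrophil proteins *S100a8* and *S100a9* were at 4433 against 1705 RPKM (-1.38) and 7494 against 1849.6 RPKM (-2.02), beside *Mpo*, the myeloperoxidase of neutrophil granules, at -0.93 and *Elane*, neutrophil elastase, at -0.59. The macrophage markers differed less, between -1.09 for *Ptprc* and 0.66 for *C1qa*, and *Csf1r* was at 137 and 189 RPKM. *Anxa8* (2.03), *Anxa3* (1.42) and *Anxa1* (1.25) were the higher annexins. Among 10 septins *Sept4* stood alone, with *Sept1* (-1.55) and *Sept5* (-1.29) lower and the remaining ones within 1.

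The gene *Msln* is a marker of mesothelium as well as a surface gene of other epithelia. The 4 mesothelial markers summed to 268 RPKM in control and 3545 RPKM in the library labelled L1L2_Alb, nearly all of it from *Msln*. *Wt1*, the defining factor of that layer, was at 4.24 and 5.96 RPKM (0.41), *Upk3b* at 1.86 and 3.59 RPKM (0.68) and *Lrrn4* at 0.33 and 0.04 RPKM. The uroplakin *Upk1b*, from a list written after its value was seen, was at 4.27 and 67.5 RPKM (3.70).

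Growth factor systems contained single large differences. *Hbegf*, a membrane-anchored ligand of the EGF receptor, was at 26.3 and 148 RPKM (2.45), the receptor *Egfr* at 43.5 and 105 RPKM (1.25) and its feedback inhibitor *Errfi1* at 73.2 and 187 RPKM (1.34). *Erbb3* was at 24.6 and 4.05 RPKM (-2.34). The ligand *Btc* was lower (-1.27), so that 3 of 11 genes of the family were higher and 2 lower by at least 1. These counts stand beside 5.70% and 9.25% of all genes, and the median was -0.07. The medium contained EGF for both genotypes. *Igfbp2* was at 12.2 and 86.6 RPKM (2.73), against *Igfbp1* at 643 and 149 RPKM (-2.10). Of the Wnt genes *Wnt7b* (1.15) was higher and *Wnt4* (-2.12) lower, and the target *Axin2* differed by 0.50. Chemokines had 3 higher and 3 lower of 20 (beside 5.70% and 9.25% of all genes), with *Cxcl13* (3.72) next to *Ccl17* at the top and *Cxcl10* (-1.89) at the bottom. Of 28 interferon-stimulated genes 25 lay within 1, beside 85.0% of all genes, and 23 were below 0, beside 7674 of all 13464 genes.

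Genes of cell division were lower almost throughout. Of 37 genes of mitosis and cytokinesis 29 were lower by at least 1, beside 9.25% of all genes, and none was higher. Their median was -1.17. Topoisomerase *Top2a* was at 43.4 and 13.8 RPKM (-1.58), *Nusap1* differed by -1.50 and the condensin subunit *Ncapd2* by -1.42. Unlike the plasma proteins, these genes lay close together, between -1.58 and -0.78 but for *Anln* at -0.02. DNA replication followed, with 14 of 35 genes lower by at least 1, beside the same 9.25%, and a median of -0.81. *Mcm6*, a subunit of the replicative helicase, was at 49.4 and 14.7 RPKM (-1.68), and *Rrm2*, the small subunit of ribonucleotide reductase, was the only one above 0 (0.75).

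The inhibitors of cyclin-dependent kinases were divided. *Cdkn2a*, the locus of p16 and p19ARF, was at 18.7 and 106 RPKM (2.44), its neighbour *Cdkn2b* at 28.7 and 115 RPKM (1.97), and *Cdkn1c* at 20.1 and 61.4 RPKM (1.56). These 3 were higher, whereas the inhibitor *Cdkn1b*, which encodes p27, was lower (-1.10). Cyclin E1 (*Ccne1*, -1.46), *Rbl1* (-1.32) and *Cdk2* (-1.05) were lower as well, while cyclin D1 (*Ccnd1*) differed by 0.18. Of 22 targets of p53 19 lay within 1, again close to the 85.0% of all genes, with *Perp*, a desmosomal protein, at 61.9 and 338 RPKM (2.43), *Cdkn1a* at 169 and 305 RPKM (0.85), and *Gdf15* lower (-1.99).

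Immediate-early factors were partly higher, in 6 of 20 genes, with 1 lower, beside 5.70% and 9.25% of all genes. *Klf4* was at 7.76 and 60.4 RPKM (2.81), *Fos* at 24.9 and 97.6 RPKM (1.93) and the phosphatase *Dusp1* at 45.9 and 156 RPKM (1.74), whereas *Jun* differed by -0.56 and *Egr1* by -1.28. General stress programmes were quieter. Of 24 genes of the unfolded protein and integrated stress response 23 lay within 1, beside 85.0% of all genes, the exception being *Ppp1r15a* (1.97), and of 20 NRF2 targets 19, the exception being haem oxygenase (*Hmox1*, 1.39). All 30 ribosomal protein genes lay within 1, with a median of -0.01, as did all 27 subunits of the respiratory chain, with a median of 0.01. Abundant RNAs of these housekeeping classes were thus at like levels in both libraries.

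The other stages of the series were used as context, since their 6 libraries play no part in the iHB difference. A fit with limma of genotype with stage as a block, across 13326 genes of iHPs and iBECs, called 326 (2.45%) at an adjusted p under 0.05 with 3 residual degrees of freedom, 227 higher and 99 lower with the L1L2_Alb label. Of the 731 genes higher in iHB that could be tested, 190 (26.0%) were called higher by limma, beside 1.73% of all genes tested in both, and none was called lower. Of the 1129 genes lower in iHB that could be tested, 76 (6.73%) were called lower, beside 0.674%, and none was called higher. These calls rest on few libraries. Without the second L1L2_Alb library of iHP limma called 0 genes at an adjusted p under 0.05, and 2527 at an unadjusted p under 0.05, and without the first it called 14.

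By direction alone, 627 of the 768 higher genes (81.6%) were higher in all 4 other libraries labelled L1L2_Alb, beside 28.5% of all genes, and 564 of the 1245 lower genes (45.3%) were lower in all 4, beside 10.5%. Of the 1245 lower genes, 97.9% and 93.6% were lower in the 2 iHP libraries, beside 49.1% and 52.1% of all genes compared, and 57.3% and 64.3% were lower in the 2 iBEC libraries, beside 29.3% and 23.2%. Whether iHB and iHP libraries came from the same dishes is not given in the sources used here. The Y-linked *Eif2s3y*, at 0 in L1L2_Alb iHB, was also at 0 in the first L1L2_Alb library of iHP. It was at 37.3 RPKM in the second, and at 11.7 and 24.4 RPKM in those of iBEC. *Xist* stood at 21.5 RPKM in L1L2_Alb iHB and at 34.1 and 0.0602 RPKM in those of iHP. L1L2_Alb iHB thus did not come from the same mix of embryos as the second L1L2_Alb library of iHP or as either one of iBEC. Whether the first L1L2_Alb library of iHP shares embryos with L1L2_Alb iHB is not shown, nor is sharing among the remaining libraries.

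All 15 of the largest increases were higher in all 4 of those libraries, and limma called 13 of them. In iHP, *Sept4* had 7.25 RPKM in the control and 199 and 243 RPKM under the L1L2_Alb label, and in iBEC it had 1.14 RPKM next to 13.9 and 19.5 RPKM, a limma difference of 3.89 with a standard error of 0.39 (adjusted p = 0.0118, higher in 4 of 4 libraries). For *Porcn* limma gave 3.16 with a standard error of 0.23 (adjusted p = 0.00470, higher in 4 of 4), and for *Ccl17* 1.65 with a standard error of 0.43 (adjusted p = 0.107), which did not pass. Of the 8 YAP/TAZ targets past 1, all were higher in the 4 libraries and limma called 5, with *Crim1* at 2.02 (adjusted p = 0.0152) and *Ctgf* at 1.54 (adjusted p = 0.0530), just outside.

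Among the 15 largest decreases, 11 were lower in all 4 libraries and limma called 4, *Vtn* (-2.998, adjusted p = 0.0263), *Itih3* (-2.84, adjusted p = 0.0219), *Gc* (-2.27, adjusted p = 0.0162) and *Pzp* (-2.77, adjusted p = 0.0187). The exceptions were *Eln*, *Eif2s3y*, *Serpina1d* and *Cps1*, each of which was higher in at least 1 iBEC library. For *Cps1* the iBEC control gave 123 RPKM and its L1L2_Alb libraries 233 and 80.4 RPKM, whereas the iHP control gave 339.7 RPKM and its L1L2_Alb libraries 21.0 and 6.24 RPKM. Of the plasma proteins 24 of 26 were lower in all 4 libraries, and limma called 16. *Hnf4a* was lower in all 4, with a limma difference of -1.37 and a standard error of 0.21 (adjusted p = 0.0305). All 29 lower mitotic genes were lower in all 4 libraries as well, although limma called none of them. Collagens differed from these lists, since 3 of the 16 lower ones were lower in all 4. *Apoa1* was not higher throughout, with 4249 RPKM in the iHP control next to 8351 and 6225 RPKM, but 4404 RPKM in the iBEC control next to 4170.1 and 2889 RPKM.

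**Figure D5:**
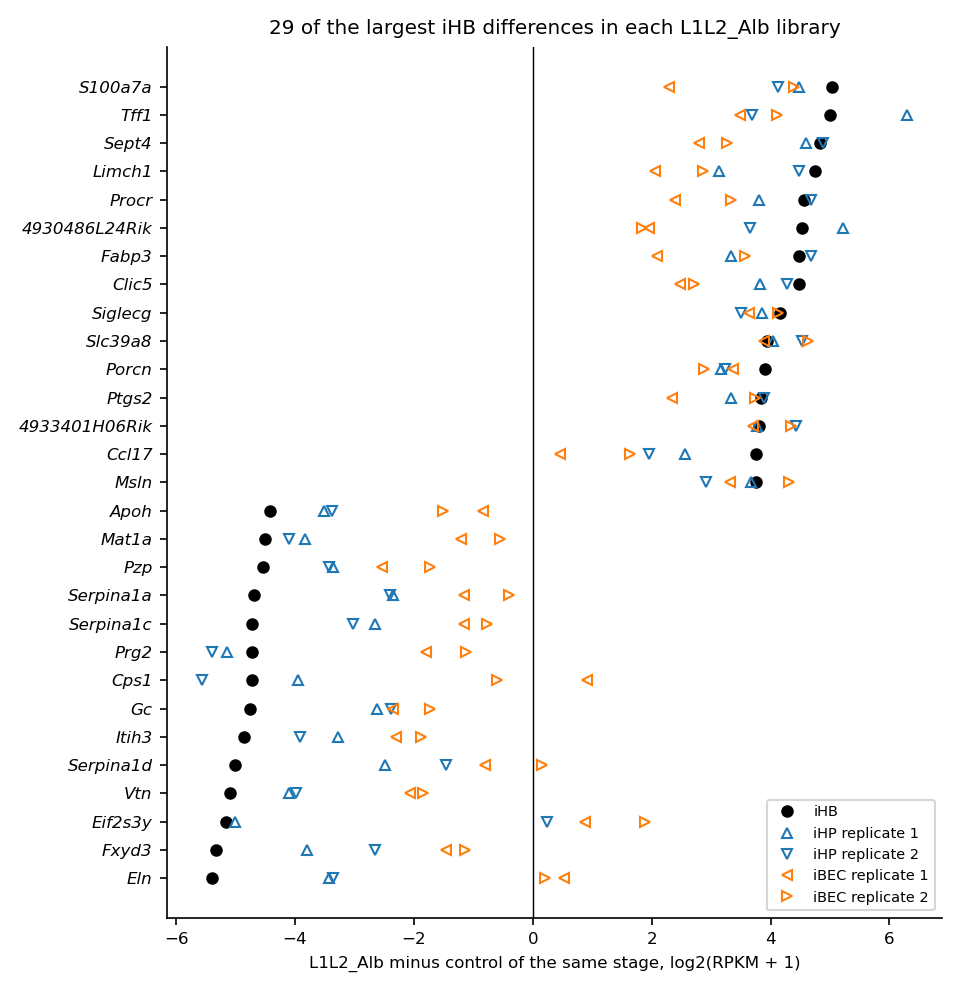
Difference of log2(RPKM + 1) from the control of the same stage for 29 of the genes with the largest iHB differences, in iHB (black dots), iHP (blue triangles) and iBEC (orange triangles), with 1 symbol for each library labelled L1L2_Alb. The 15 increases lie right of 0 in every library, and among the decreases *Eln*, *Eif2s3y*, *Serpina1d* and *Cps1* cross 0 in at least 1 iBEC library.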

How the data were processed

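RNA was taken from cultured fetal mouse liver cells with a total RNA kit, made into TruSeq RNA v2 libraries, which do not mark the strand, and sequenced on a HiSeq 2000. The RPKM values were made and deposited by the authors as a single table of all 8 libraries. Their processing notes name Bowtie 0.12.2 and the mm8 build, and the counting tool and gene models are not given in the sources used here. Of 23471 entries, 4 belonging to 2 repeated symbols were left out, which left 23467 genes. Depth was recovered from the RPKM values of genes for small nucleolar, small nuclear and micro RNAs. For 389 to 439 of these a library, the values are whole multiples of what 1 read is worth at the RefSeq length (tolerance 0.02 reads). This gave 18436865 to 33229075 mapped reads a library. With that depth, whole reads were found for 14361 genes. Their lengths were fitted, as the shortest that gave whole reads in every library with RNA of the gene. No other file was used. Some genes that the naming rule below would include are not reported here.

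The 2 iHB libraries were compared on log2(RPKM + 1) over 13464 genes whose mean reached 1 RPKM. With 1 library a side there is no test. A ratio of reads has an exact binomial 95% interval, which covers counting error only, and a gene at 0 in 1 library is given against a floor of 3 reads. Named genes are the 15 largest differences either way, up to 8 members past 1 of each of 47 lists and 8 marker lists, any member of a list of up to 25 genes, and genes the study names. *Rbp4*, *Anln*, *Rrm2*, *Arg1*, *Ugt2b34*, *Cyp2s1*, *Itgb4*, *Thbd*, *Plaur*, *Col4a1* and *Col4a2* fall outside this rule and were named, and 4 lists added, after values were seen. The members and lists were chosen with earlier results of these data known. As context, the 6 iHP and iBEC libraries were fitted with limma 3.58.1 (R 4.3.3) on log2(RPKM + 1) with stage as a covariate, with Benjamini-Hochberg adjustment over 13326 genes. The 2 L1L2_Alb libraries of iHP differed in sex-linked RNA, with *Xist* at 34.1 and 0.0602 RPKM and *Eif2s3y* at 0 and 37.3 RPKM. They thus did not come from the same mix of embryos. The 2 L1L2_Alb libraries of iBEC also differed, with *Xist* at 35.5 and 6.58 RPKM and *Eif2s3y* at 11.7 and 24.4 RPKM. Their mix of male and female cells was thus not alike either. Whether they came from wholly separate embryos is not given in the sources used here. These p-values rest on the spread between the 2 L1L2_Alb libraries of a stage and on any difference in genotype effect between the 2 stages. With 1 control library a stage they hold no spread between controls. Part of the spread in iBEC may be technical. Versions were numpy 2.4.6, pandas 2.3.3, scipy 1.17.1 and Python 3.11.15, and the fit was tested on simulated data. The other pseudocount, filters, scalings and left-out libraries are covered in the closing section.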

Additional observations from a re-analysis of the deposited data

Results flagged for a closer look

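Some iHB differences went the opposite way in every library labelled L1L2_Alb of another stage. None of these contrasts between stages was tested, since iHB has 1 library for each genotype.

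The median of all genes compared was 0.22 and 0.26 in the 2 iBEC libraries, and these values stand beside each iBEC difference given here. The median of the 22 biliary epithelial genes was -1.22 in iHB but 0.91 and 0.88 in the 2 iBEC libraries. The median of the 15 genes of epithelial to mesenchymal transition was -1.03 in iHB and 0.60 and 0.27 in iBEC, the second at the level of all genes. *Eln* differed by -5.40 in iHB and by 0.52 and 0.20 in iBEC, against -3.43 and -3.37 in iHP, but its iBEC levels were traces, 0.470 RPKM in the control next to 1.10 and 0.688 RPKM. *Eif2s3y* differed by -5.15 in iHB and by 0.87 and 1.88 in iBEC, and as a Y-linked gene it follows which embryos were in a dish, so embryo sex and genotype cannot be told apart.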

How the results depend on the processing

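Each iHB value rests on 1 library a side, so the spread between cultures is unknown. No paired analysis was possible because each control group has 1 library and the iHB groups share a single replicate number. With a mean of at least 5 RPKM, 605 genes were higher and 730 lower by at least 1, and 2 lists had a median of at least 1 instead of 1. Under median-ratio scaling the median of all genes moved from -0.09 to 0.02, the split became 931 higher and 1035 lower (47.4% higher instead of 38.2%), and 123 lower genes were also called by limma. Of the genes named in the text, *Tagln*, *Peg3*, *Snai2*, *Cdkn1b*, *Cdk2*, *Meg3* and *Ptprc* then no longer reached 1. With a pseudocount of 0.1 instead of 1 the split was 925 and 1727. Without a filter on low values, 0 lists had a median of at least 1, and limma called 13 genes at an adjusted p under 0.05, of which 12 were shared higher and 1 shared lower genes. The median of bile acid genes turned to 0.16 and that of G1 genes to 0.004 with a mean of at least 5 RPKM, and that of Wnt genes to 0.05 under median-ratio scaling. By a mean difference of at least 1 without a test, 2539 genes differed in iHP alone, with 522 shared higher and 858 shared lower genes, and 1276 in iBEC alone, with 365 and 166. Leaving out 1 library at a time gave 0 to 161 limma calls, 0 to 119 shared higher and 0 to 46 shared lower genes. The calls were 0 without the second L1L2_Alb library of iHP (2527 at an unadjusted p under 0.05) and 14 without the first, a lone library being assumed to vary like the other group. For these changes the cause was not tested. No gene named in the text with a difference past 1 changed direction under any alternative run.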

Other observations

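Histone genes, taken by symbol alone, differed from the genes of mitosis. Of 41 genes whose symbol begins with Hist, 18 were higher by at least 1 in the library labelled L1L2_Alb, beside 5.70% of all genes. None was lower by that much, with a median of 0.94, while 29 of 37 mitotic genes were lower. *Hist1h2bc* was at 56.7 and 201 RPKM (1.81). Many histone genes are near-identical copies, so the split of reads among them is uncertain. Most histone transcripts lack a poly(A) tail, so these values need not stand for all histone RNA of the cells.

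Eosinophil genes were lower beyond the single gene named above. *Prg2* was at -4.72. Of 7 genes of the eosinophil-associated ribonuclease family (symbols beginning with Ear) 6 were lower by at least 1, beside 9.25% of all genes. The exception was *Ear11*, a member known from macrophages, at 3.26 and 21.0 RPKM (2.37). These copies are close in sequence and share reads.

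Imprinted genes, in a list written after values were seen, moved both ways, with 3 of 25 higher and 8 lower by at least 1. The shares over all genes were 5.70% and 9.25%. *Peg10* was at 5.40 and 21.2 RPKM (1.80) and *Snrpn* differed by 1.72, whereas *Zim1* (-2.76), *Meg3* (-1.04) and *Rian* (-1.26) were lower beside *H19* and *Igf2*.

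The dual-specificity phosphatases, which inactivate MAP kinases, had 6 of 19 members higher by at least 1 (beside 5.70% of all genes), among them *Dusp14* (2.26), *Dusp5* at 13.6 and 64.6 RPKM (2.17) and *Dusp4* (1.88), with *Dusp16* lower (-1.36). Carboxylesterases were divided, with 4 of 9 higher and 4 lower by at least 1, beside 5.70% and 9.25% of all genes. Their member *Ces2f* was at 0.559 and 12.4 RPKM (3.10). Beside *Porcn*, a Wnt ligand outside the lists, *Wnt7a*, was at 6.31 and 96.6 RPKM (3.74), and was named after its value was seen.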
